A study of Homo sapiens with 4 samples.

Results

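Transcripts of Krüppel-like factors (KLFs) were compared between GFP-positive and GFP-negative fractions of MDA-MB453, a human line from a breast carcinoma. GFP is green fluorescent protein, here the marker on which the fractions were taken apart. The members were 10 KLF genes, KLF2 to KLF7, KLF9 to KLF11 and KLF13, and every array probe that the platform annotation named for one of them was taken. That gave 13 probes for 9 genes, out of 47321 probes and 20046 named genes on the array. KLF11 had no probe named here and was not analysed here. The GFP-positive cells, labelled cancer stem like cells, were measured on 2 arrays, and the GFP-negative cells, labelled non-cancer stem like cells, on 2 arrays. Both groups are fractions of the same line, grown in DMEM with fetal bovine serum, and no allele or agent besides the marker is named. The sources used here do not say what drives GFP. RNA of the 2 groups was isolated in pairs on different days per the series text, which also mentions combining batches of RNA, and separate cultures are not stated for arrays of a group. The p-values therefore reflect the spread between 4 samples, some or all of which may be technical.

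KLFs are transcription factors that bind GC-rich and CACCC-type DNA through a shared set of zinc fingers at the C terminus, close to those of the SP factors. What they do at a promoter depends on the partner bound by the rest of the protein. One subgroup, with KLF2, KLF4, KLF5, KLF6 and KLF7, mainly acts with acetyltransferases, KLF3, KLF8 and KLF12 recruit the corepressor CtBP, and KLF9, KLF10, KLF11 and KLF13 recruit the corepressor SIN3A. In breast epithelium KLF4 and KLF5 are the members most studied, and KLF4 is also one of the factors used to reprogram cells to pluripotency.

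The promoter windows of KLF9 and KLF5 are shown because these genes had the largest fitted differences upwards and downwards over all 4 arrays, and that of KLF2 as a GC-rich window of the same family. Each window runs from 250 bases before to 50 bases after a gene start in RefSeq (GRCh38.p14), and is written 5′ to 3′ on the gene's strand. Capitals mark the GC box GGGCGG and the CACCC box, searched on both strands (as CCGCCC and GGGTG on the other strand). Overlapping copies were counted separately.
KLF9, chr9:70414608-70414907, minus strand: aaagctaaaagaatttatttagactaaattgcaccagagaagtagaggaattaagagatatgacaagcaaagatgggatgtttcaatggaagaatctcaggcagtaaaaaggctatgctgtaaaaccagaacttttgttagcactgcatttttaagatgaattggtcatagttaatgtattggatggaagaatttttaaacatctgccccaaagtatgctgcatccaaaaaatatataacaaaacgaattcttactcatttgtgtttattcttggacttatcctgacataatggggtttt
KLF5, chr13:73058755-73059054, plus strand: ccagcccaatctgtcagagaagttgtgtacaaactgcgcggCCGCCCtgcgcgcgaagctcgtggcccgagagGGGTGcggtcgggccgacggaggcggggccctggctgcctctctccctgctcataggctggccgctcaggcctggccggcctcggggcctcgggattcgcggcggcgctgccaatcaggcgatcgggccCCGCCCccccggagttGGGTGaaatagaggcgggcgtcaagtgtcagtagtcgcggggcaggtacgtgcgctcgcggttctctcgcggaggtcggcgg
KLF2, chr19:16324576-16324875, plus strand: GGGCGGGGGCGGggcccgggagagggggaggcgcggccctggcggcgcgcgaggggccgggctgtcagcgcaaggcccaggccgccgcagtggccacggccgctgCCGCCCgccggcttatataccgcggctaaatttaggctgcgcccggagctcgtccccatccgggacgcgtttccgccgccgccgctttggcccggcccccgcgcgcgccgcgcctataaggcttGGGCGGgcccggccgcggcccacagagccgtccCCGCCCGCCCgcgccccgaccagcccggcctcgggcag
The KLF9 window held neither box and was 32.7% G or C. The KLF5 window held 2 GC boxes and 2 CACCC boxes, and the window at another KLF5 start, chr13:73054726-73055025, held 0 and 1. The KLF2 window held 6 GC boxes and no CACCC box and was 80.7% G or C. Of 35116 promoter windows of this length in the table, 45.0% held a GC box and 59.9% a CACCC box. RefSeq starts need not be the ones used in these cells, and a match is a description of the letters only.

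GFP-positive cells had more signal for KLF9, KLF10, KLF6 and KLF2 and less for KLF5 and KLF13. KLF4 and KLF7 did not pass the test, and KLF3 was not detected well enough to be tested. By gene, 6 of 8 tested members passed, 4 higher and 2 lower. Over all 10955 tested genes, each by its brightest tested probe, 42.6% passed, 20.3% higher and 22.4% lower. By probe, 5 of 10 tested KLF probes were higher, 2 were lower and 3 did not pass, while 40.5% of all 18098 tested probes passed, 18.8% higher and 21.7% lower. A probe was tested where every array of 1 group or of both had a detection p under 0.05, and passed where the adjusted p was under 0.05 (limma's moderated test, Benjamini-Hochberg over all tested probes). Differences are GFP-positive minus GFP-negative on the log2 scale of background-corrected, quantile-normalized signal, given with their standard error (SE). The median difference was 0.54 over the 10 KLF probes and -0.05 over all tested probes, and the median size 0.73 against 0.47. This median of KLF probes leaves out 3 probes that were not tested, and 4 of the 10 passed the filter through 1 group only or with 1 array of the other, 3 of them through the GFP-positive arrays and KLF5 through the GFP-negative arrays. Among the 6 KLF probes detected on all arrays, 3 were higher, 1 was lower and 2 did not pass, where 35.6% of 14107 such probes passed when tested alone. For 9 of the 10 KLF probes the groups were apart on all arrays, as they were for 72.6% of all tested probes. With 2 arrays a group the smallest 2-sided p of an exact permutation test is 0.333, so every call rests on limma's pooled variance.

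**Figure D1:**
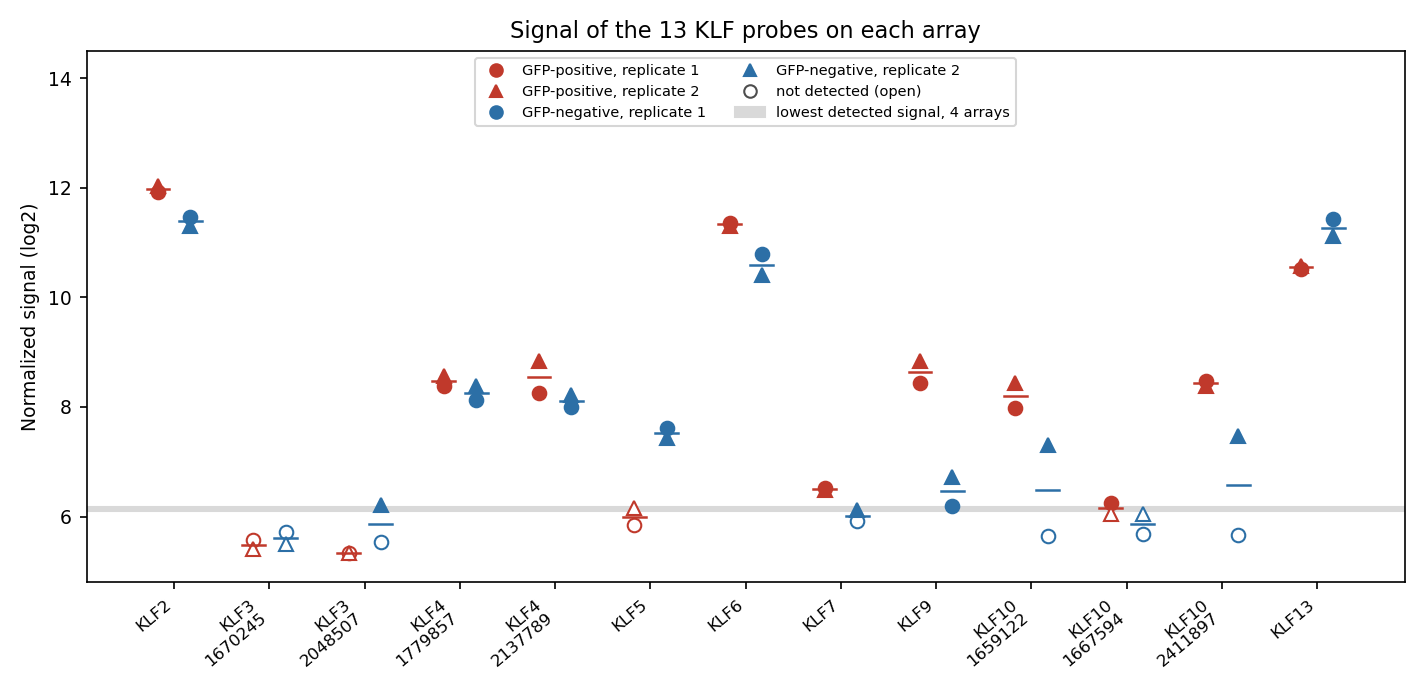
Normalized log2 signal of the 13 KLF probes, with circles for replicate 1 and triangles for replicate 2, red for GFP-positive and blue for GFP-negative arrays, short lines for group means (n = 2), open symbols for a detection p of 0.05 or more, and a grey band at the lowest signal of a detected probe. KLF2, KLF6 and KLF13 lie far above the band in both groups, whereas KLF5 is above it in GFP-negative cells only and both KLF3 probes lie around or below it.

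The MDA-MB453 label was set against 9 luminal and apocrine breast markers with a named probe. GATA3, PIP and AZGP1 were detected on no array. The keratin KRT8 was higher in GFP-positive cells (5.18 ± 0.33). ERBB2, by its brightest probe, and FOXA1 were detected on all 4 arrays and were lower in GFP-positive cells (log2 differences -1.46 ± 0.17 and -0.94 ± 0.22, adjusted p = 0.000504 and 0.0126, limma). Other ERBB2 probes were detected on no array. SPDEF, KRT18 and XBP1 did not pass (-0.49, 0.39 and 0.13), and SPDEF was detected on no GFP-positive array. The summed signal of the luminal list was 18260 to 20544 on GFP-positive arrays and 10510 to 11634 on GFP-negative arrays. KRT8 was the brightest of the list on GFP-positive arrays (log2 signal 13.70 and 13.66, against 9.06 and 7.95 on GFP-negative arrays). The sum therefore does not describe the other markers, of which ERBB2 and FOXA1 were lower. The FOXA1 call ended without GFP-positive replicate 2 or GFP-negative replicate 2 (adjusted p up to 0.0989). Of the fibroblast list, DCN, LUM and PDGFRB were detected on no array. The 3 tested members of 6, COL1A1, COL1A2 and COL3A1, were all lower in GFP-positive cells, where 22.4% of all tested genes were. These 3 passed the detection filter through the GFP-negative arrays only, which largely set their direction. The summed signal of that list's 6 genes was 1104 to 1126 on GFP-positive arrays and 1633 to 2125 on GFP-negative arrays, and the part of either list in the KLF differences was not tested. Endothelial and erythroid markers had no tested member, and PTPRC and CD3E were detected on no array. Of the leukocyte list, the brightest probes of CD68 and CD14 did not pass, though both passed as lower without GFP-negative replicate 2 (-0.63 and -0.75, adjusted p = 0.0467 and 0.0328, limma), and another CD68 probe was higher (2.32 ± 0.22). Between 36.8% and 38.5% of probes per array were detected, and precision is limited by having 2 arrays a group. In bulk RNA, fewer cells that express a gene and less RNA per cell cannot be told apart.

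Of the members that recruit SIN3A, KLF9, a repressor induced by glucocorticoid and thyroid hormones, had the largest fitted difference of the KLF genes over all 4 arrays. Without GFP-negative replicate 2 it had 2.45, less than the 2.76 and 2.57 of 2 KLF10 probes. Its log2 signal was 8.44 and 8.84 on GFP-positive arrays 1 and 2, against 6.19 and 6.73 on GFP-negative arrays 1 and 2. The lowest GFP-positive value exceeded the highest GFP-negative value by 1.72, and the gap between arrays of a group was at most 0.53. The log2 difference was 2.18 ± 0.24 (95% interval 1.61 to 2.75, adjusted p = 0.000365, limma), a 4.54-fold higher signal. GFP-negative array 1 was only just detected (detection p-value 0.0455, signal 211), and array 2 clearly so (0.0013). The call held in the reported setting and all 12 alternatives. Without background correction the difference was 1.24. Of the tested probes, 6.73% had a difference of larger size than KLF9.

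KLF10, first described as a TGF-beta-inducible early gene, was higher in GFP-positive cells on the 2 probes that could be tested. Its probe ILMN_2411897 had 8.48 and 8.38 in GFP-positive cells, against 5.67 and 7.47 in GFP-negative cells. Probe ILMN_1659122 had 7.98 and 8.43 in GFP-positive cells, against 5.64 and 7.31 in GFP-negative cells. On both probes the groups did not overlap, but the GFP-negative arrays lay far apart: replicate 2 was detected and replicate 1 was not. The gap between the GFP-negative arrays, 1.80 and 1.68, was nearly as large as the differences of 1.86 ± 0.50 and 1.73 ± 0.48 (adjusted p = 0.0223 and 0.0259, limma). Same-numbered arrays were taken as replicate pairs, which is an assumption. Within them the difference was 2.81 in pair 1 and 0.91 in pair 2 on the first probe, and 2.34 and 1.12 on the second. Without GFP-negative replicate 1 the differences were 0.96 and 0.89. That setting leaves 1 GFP-negative array, so it cannot measure the gap between the GFP-negative arrays. Calls were lost for the first probe without GFP-positive replicate 1 (adjusted p = 0.0534), for the second without GFP-positive replicate 2 (0.0872), and for both when undetected probes were included in the test (0.119 and 0.131). Without background correction the differences were 1.02 and 0.92. The remaining probe, ILMN_1667594, matched to another KLF10 transcript, stayed near background with 6.26 and 6.04 against 5.69 and 6.05, was detected on GFP-positive array 1 only and was not tested.

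KLF13, a regulator of the chemokine gene CCL5 in T cells, went the other way. Its log2 signal was 10.52 and 10.58 on GFP-positive arrays, against 11.42 and 11.12 on GFP-negative arrays, with no overlap. The difference of -0.72 ± 0.19 (95% interval -1.16 to -0.28, adjusted p = 0.0189, limma) means that the GFP-positive signal was lower by 1.65-fold. It stayed negative under every setting tried, and the call ended without GFP-positive replicate 1, GFP-positive replicate 2 or GFP-negative replicate 1 (adjusted p = 0.1, 0.0838 and 0.0673). Of the 3 analysed SIN3A-type members 2 were higher and 1 was lower, where 20.3% of all tested genes were higher and 22.4% lower. The KLF10 and KLF13 calls were each lost in some settings.

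Among the members that act mainly with acetyltransferases, KLF5, which drives proliferation of basal epithelial cells, was below detection in GFP-positive cells. Its log2 signal was 5.85 and 6.15 on GFP-positive arrays, where it was not detected (detection p-value 0.165 and 0.0545), against 7.61 and 7.44 on GFP-negative arrays, where it was. The GFP-positive signal was lower by at least 2.60-fold, taking the GFP-positive level per array as the higher of its own and the lowest signal of a detected probe. The measured means were 6.0 ± 0.21 in GFP-positive and 7.52 ± 0.12 in GFP-negative cells (SD, n = 2 each), and the adjusted p was 0.000683 (limma). The fitted difference of -1.53 ± 0.19 is set against signals below detection, so the bound stands in for its size. The gap of 1.29 between the nearest arrays of the groups exceeded the largest gap within a group, 0.30. KLF5 passed in all 12 settings in which it could be tested, which leaves out the test of probes detected on all 4 arrays. Without background correction its log2 difference was -0.71, smaller in size than the bound of 2.60-fold.

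KLF6, a ubiquitous factor that activates the cell cycle inhibitor gene CDKN1A, was bright in both groups. It had 11.36 and 11.30 on GFP-positive arrays, against 10.78 and 10.41 on GFP-negative arrays. The groups did not overlap, and the difference was 0.74 ± 0.20 (95% interval 0.28 to 1.19, adjusted p = 0.0212, limma), a 1.67-fold higher signal. KLF2, which keeps endothelial cells and T cells quiescent, had 11.93 and 12.03 on GFP-positive arrays, against 11.47 and 11.30 on GFP-negative arrays. Its difference was 0.59 ± 0.18 (95% interval 0.18 to 1.00, adjusted p = 0.033), a 1.50-fold higher signal, again with no overlap.

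Both small differences were sensitive to scaling and to single arrays. Under 75th percentile scaling KLF6 had 0.56 (adjusted p = 0.0603) and KLF2 0.41 (adjusted p = 0.155), with a median of -0.12 over all tested probes in that scaling, and with undetected probes included in the test their adjusted p was 0.0576 and 0.0608 (limma). The KLF6 call also ended without GFP-positive replicate 1, GFP-positive replicate 2 or GFP-negative replicate 2 (adjusted p = 0.103, 0.0867 and 0.0683), and so did the KLF2 call (0.114, 0.185 and 0.0871).

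KLF4, the reprogramming factor and regulator of epithelial differentiation, had 2 probes and neither passed. Probe ILMN_1779857 had 8.38 and 8.57 on GFP-positive arrays, against 8.13 and 8.39 on GFP-negative arrays, and the groups overlapped. Probe ILMN_2137789 had 8.25 and 8.83 on GFP-positive arrays, against 8.0 and 8.22 on GFP-negative arrays, and the groups were separated by only 0.02. The differences were 0.21 ± 0.19 and 0.43 ± 0.24, with 95% intervals of -0.23 to 0.65 and -0.12 to 0.98 (adjusted p = 0.399 and 0.186, limma). Both intervals reach the size of the KLF2 difference, only that of ILMN_2137789 reaches the KLF6 difference, and neither reaches the KLF9 difference.

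KLF7, known from neuronal and adipocyte development, was dim. It had 6.53 and 6.48 on GFP-positive arrays, against 5.92 and 6.11 on GFP-negative arrays, of which replicate 2 was just detected (detection p-value 0.0481) and replicate 1 was not. The groups did not overlap, but the difference of 0.49 ± 0.18 (95% interval 0.07 to 0.90) missed the threshold after adjustment (adjusted p = 0.0617, limma). It passed narrowly with cyclic loess normalization (adjusted p = 0.0469) and with the replicate pairs as a block (0.04995), and was 0.21 without background correction.

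**Figure D2:**
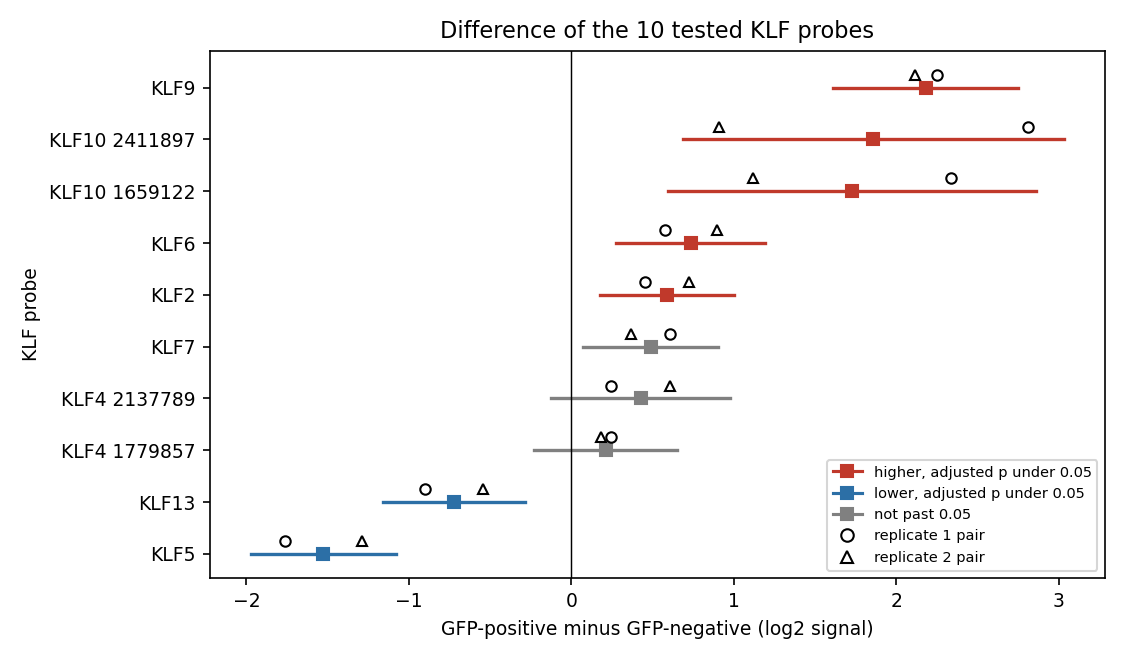
Difference in log2 signal, GFP-positive minus GFP-negative, of the 10 tested KLF probes (squares) with 95% intervals from limma, red for higher, blue for lower and grey for not past 0.05. Open circles and triangles are the differences within replicate pair 1 and pair 2, with pairs assumed from the replicate number. The sign is the same in both pairs for all 10 probes. It could not differ for the 9 whose groups did not overlap, as was so for 72.6% of all tested probes. The pairs lie furthest apart for KLF10, at 2.81 and 0.91 on ILMN_2411897.

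Of the CtBP-recruiting members, only KLF3, a repressor of erythroid and adipocyte genes, was among the genes followed. Probe ILMN_1670245 had 5.58 and 5.40 on GFP-positive arrays, against 5.72 and 5.50 on GFP-negative arrays, and was detected on no array. Probe ILMN_2048507 had 5.33 and 5.34 on GFP-positive arrays, against 5.53 and 6.21 on GFP-negative arrays, and was detected on GFP-negative array 2 only (detection p-value 0.0312). No fold is given for KLF3.

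**Figure D3:**
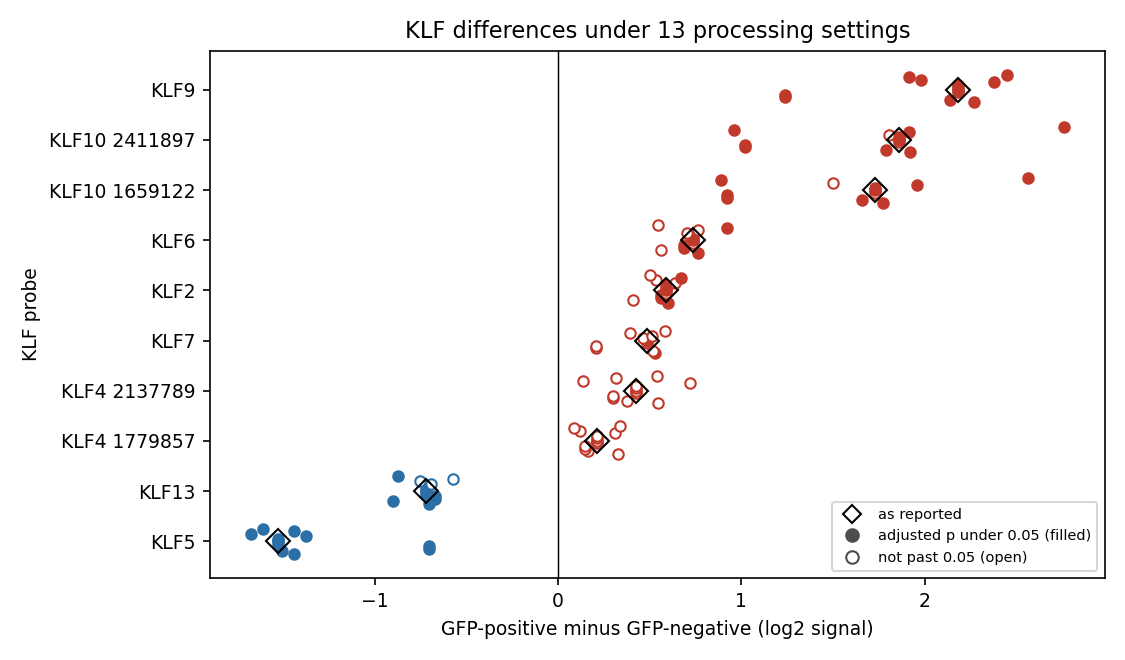
The same differences (log2, horizontal axis) under the 13 processing settings, with diamonds for the value as reported, filled circles for an adjusted p under 0.05 and open circles otherwise. No probe changes sign, which the detection filters, the block and, for 9 of the probes, leaving out an array could not bring about. KLF9 and KLF5 are filled throughout, whereas KLF2, KLF6, KLF10 and KLF13 have open circles.

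Of 7 further KLF genes with a named probe, KLF1, KLF8, KLF14, KLF16 and KLF17 were not detected well enough to be tested. KLF15, which is induced by glucocorticoids, and KLF12, a CtBP-recruiting repressor, were tested and did not pass (-0.37 ± 0.18 and -0.25 ± 0.29, adjusted p = 0.146 and 0.529, limma). KLF15 was not detected on the GFP-positive arrays, and another KLF12 probe was detected on no array. Of 6 tested SP genes, which share the zinc finger fold, 2 were lower and 4 did not pass, where 22.4% of all tested genes were lower and 42.6% passed in either direction. SP8, a limb and brain patterning factor, had 6.25 and 6.28 in GFP-positive cells, against 8.49 and 8.93 in GFP-negative cells (difference -2.45 ± 0.20, adjusted p = 7.9e-05, limma). The GFP-positive SP8 signals lay just above the lowest detected signal, and without background correction the difference was -1.37. SP4 was lower by one probe (-0.93 ± 0.22, adjusted p = 0.0125, and 0.0777 without GFP-positive replicate 2), while its other tested probe had -0.36 ± 0.21 and did not pass.

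Of 11 corepressors and coactivators used by KLFs, all tested, 1 was higher, 3 were lower and 7 did not pass, a share near the 42.6% of all genes. SAP30, a subunit of the SIN3 complex, had a difference of -2.58 ± 0.21, and the acetyltransferase gene EP300 was lower by at least 4.12-fold (adjusted p = 7.5e-05 and 0.000199, limma). Without background correction the log2 difference of EP300 was -1.29, smaller than this bound. The acetyltransferase gene KAT2B had -0.78 ± 0.21, and the corepressor gene CTBP2 0.95 ± 0.21 on its brightest probe and -0.23 ± 0.24 on another, which did not pass. SIN3A, SIN3B, CTBP1, HDAC1, HDAC2, HDAC3 and CREBBP did not pass. Without GFP-positive replicate 1 the calls in this list numbered 2 (not CTBP2 or KAT2B), and the KAT2B call also ended without either replicate 2 and with undetected probes included.

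Of 9 tested genes for turnover of KLF proteins, 2 were higher, 1 was lower and 6 did not pass, where 42.6% of all tested genes passed. FBXO32, part of a ubiquitin ligase reported for KLF4, was at least 2.13-fold higher, and the deubiquitinase gene USP3 had 1.02 ± 0.18 (adjusted p = 0.000965 and 0.00375, limma). Without background correction the log2 difference of FBXO32 was 0.61, smaller than this bound. The ubiquitin ligase gene ITCH had -0.60 ± 0.20 (adjusted p = 0.0477), a call that 5 of 12 other settings ended, among them leaving out GFP-positive replicate 1, GFP-positive replicate 2 or GFP-negative replicate 1. The list's count of 3 became 6 without background correction and 5 with the replicate pairs as a block. Of 4 tested genes of the ERK5 and MEF2 route upstream of KLF2 and KLF4, 2 were lower, where 42.6% of all tested genes passed in either direction and 22.4% were lower. The transcription factor gene MEF2A had -2.35 ± 0.30 (-0.81 ± 0.18 on another probe, which also passed) and MAPK7, which encodes ERK5, -0.65 ± 0.17 (adjusted p = 0.000694 and 0.02), and the MEF2A difference was -1.49 without background correction. MAPK7 did not pass without GFP-positive replicate 1, GFP-positive replicate 2 or GFP-negative replicate 1, which left 1 call in the list.

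Hormone and TGF-beta genes were set beside KLF9 and KLF10. Of 4 tested glucocorticoid-responsive genes, only the kinase gene SGK1 passed (42.6% of all tested genes did), at least 9.65-fold higher in GFP-positive cells (adjusted p = 3.22e-05, limma), and its other 2 tested probes had 4.50 ± 0.24 and 3.77 ± 0.29. FKBP5, DUSP1 and TSC22D3 did not pass (-0.50, 0.43 and 0.22), and the receptor gene NR3C1 was not detected well enough to be tested. The count in this list was 2 with cyclic loess, with 75th percentile scaling, without background correction and in the deposited table. Of 6 tested TGF-beta genes, 2 were higher and 2 lower, where 42.6% of all tested genes passed. The receptor gene TGFBR2 was at least 17.3-fold higher and the signal transducer SMAD3 had 2.65 ± 0.18, whereas the inhibitory SMAD7, which KLF10 is reported to repress, had -3.41 ± 0.18 (-1.70 ± 0.23 on another probe, which also passed) and the ligand gene TGFB3 was at least 4.49-fold lower. Without background correction the log2 differences were smaller than these bounds, 2.93 for TGFBR2, 2.19 for SGK1 and -1.58 for TGFB3. Any link of KLF9 or KLF10 to the differences in these lists was not tested.

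Reported targets of the members were split. These lists were chosen with earlier results of these data known, so their counts are not independent of the data. Of 6 tested KLF4 targets, 5 were higher and 1, the cyclin gene CCND1, did not pass, where 20.3% of all tested genes were higher. The cell cycle inhibitor CDKN1A had 6.85 ± 0.28, the keratin KRT19 3.20 ± 0.22, the cadherin CDH1 3.03 ± 0.25 and the interferon-induced IFITM3 1.31 ± 0.18. Of 10 tested KLF5 targets, 4 were higher, 1 was lower and 5 did not pass, a share near the 42.6% of all tested genes that passed. The receptor gene EGFR was at least 9.20-fold higher by its brightest probe (another tested probe had -0.10 and did not pass), the prostaglandin synthase gene PTGES at least 7.30-fold and TNFAIP2 at least 1.18-fold, and the fibroblast growth factor carrier FGFBP1 had -2.69 ± 0.17. Without background correction the log2 differences of EGFR and PTGES were 2.48 and 1.80, below their bounds, and that of TNFAIP2 was 0.97, above its bound. Of 3 tested KLF6 targets, all past the threshold where 42.6% of all tested genes were, CDKN1A and the protease gene PLAU (4.46 ± 0.19, detected on 1 of the 2 GFP-negative arrays) were higher and COL1A1 was lower (-1.04 ± 0.31, adjusted p = 0.0309 by limma, the highest among the genes besides KLF2 named as changed from these target lists, lost without GFP-positive replicate 2 or GFP-negative replicate 1 and with undetected probes included). Of 7 listed targets of KLF3, KLF7, KLF11 and KLF13, 3 were tested and 2 were higher, where 20.3% of all tested genes were. MAOA was at least 10.1-fold and LGALS3 at least 2.76-fold higher, and CCL5 did not pass (-0.22 ± 0.20). MAOA, LGALS3, EGFR, PTGES and TNFAIP2 were detected on no GFP-negative array and passed the filter through the GFP-positive arrays only. Their direction was thus largely set by the filter. Without background correction the log2 differences of MAOA and LGALS3 were 2.80 and 1.24, below their bounds. KLF3 and KLF11 themselves were not tested. The list of KLF2 targets holds KLF2 itself, which was the 1 higher of its 2 tested genes. The other, NOS3, which encodes endothelial nitric oxide synthase, did not pass (0.35 ± 0.18). The lists hold genes with many other regulators, and the arrays do not tie any of them to a KLF.

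**Figure D4:**
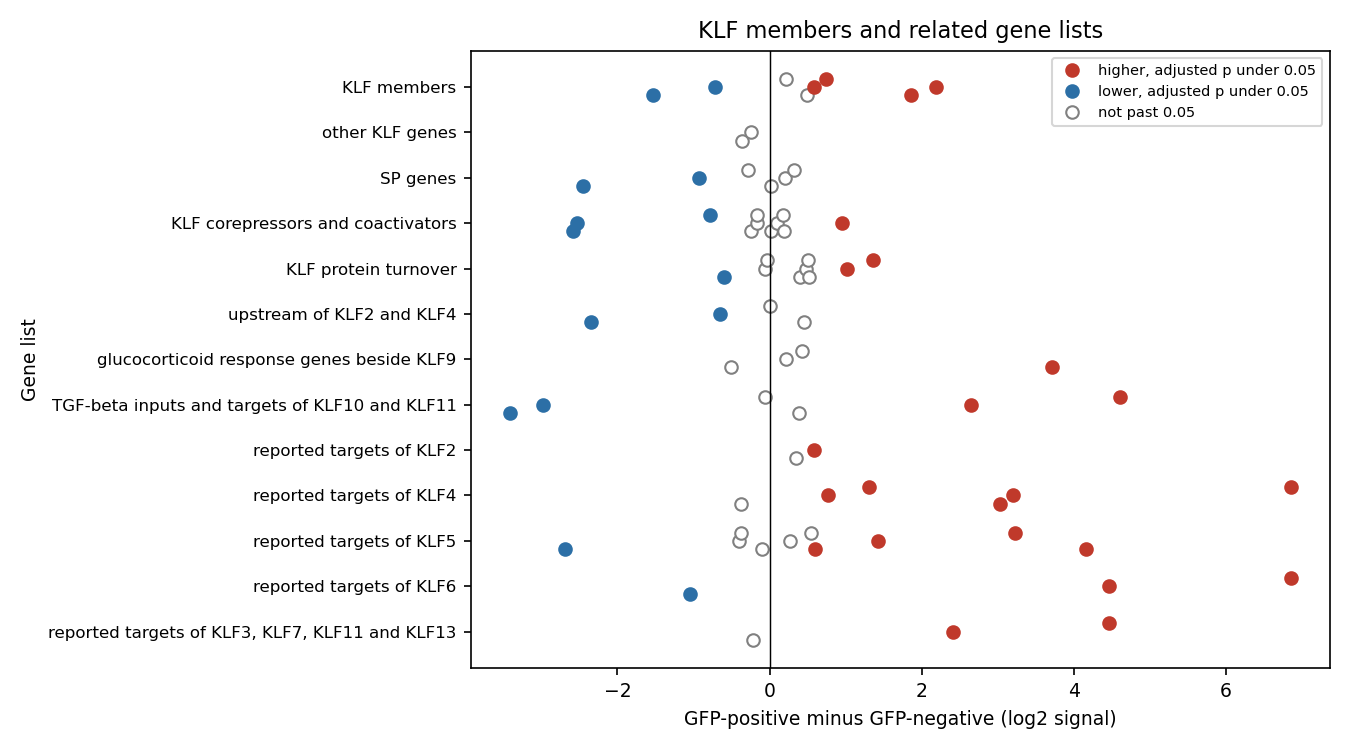
Difference in log2 signal, GFP-positive minus GFP-negative, for each tested gene of the KLF members and the related lists, by its brightest tested probe, filled red for higher, filled blue for lower and open for not past 0.05. The KLF members lie between -1.53 (KLF5, fitted against signals below detection) and 2.18 (KLF9), and CDKN1A, at 6.85, is the point furthest to the right in the lists of KLF4 and KLF6 targets. KLF2 is also plotted in its own target list.

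The genes whose pattern over the 4 arrays was closest to KLF9 were INTU, PPP2R2C and ELL2, at Euclidean distances of 0.15, 0.18 and 0.19 after each probe was centred on its own mean. Those closest to KLF5 were AJUBA, PRKAR1B and TXNRD2, at 0.10, 0.11 and 0.11. Within a distance of 0.5 lay 170 other named probes for KLF9 and 569 for KLF5, so 4 arrays distinguish few patterns.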

How the data were processed

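RNA of the GFP-positive and the GFP-negative fraction, 2 arrays each, was amplified to biotinylated cRNA for Illumina bead arrays, per the labels' protocols. The deposited intensity values are bead signals that are not normalized per the file headers, with a deposited detection p-value for each. The submitters' processing notes list GenomeStudio 2009.2. No source used here says if it removed background. A deposited table of log2 values matched the quantile-normalized log2 signals to within 0.00417. Its scale is thereby known, its columns share a median of 7.53, and its genes are not centred.

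In R 4.3.3 with limma 3.58.1, neqc corrected background by normexp (inferred from detection p-values), added an offset of 16, quantile-normalized and took log2. Testing with lmFit and eBayes took in the 18098 probes with a detection p under 0.05 on every array of 1 group or both (residual degrees of freedom 2, prior 5.31), with Benjamini-Hochberg adjustment. Where neither array of a group detected a probe, its fold is a bound ("at least N-fold"), against the lowest detected log2 signal per array (6.09 to 6.17) or the probe's own value if higher. Such a bound holds on the background-corrected scale only. A gene given as a bound passed the filter through the other group only, which largely set its direction. Probes were named from the platform annotation: 30111 had 1 symbol, 8 several and 17202 were unnamed here. Symbols of 30072 were updated through the GRCh38.p14 gene table.

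In each list the text names up to 4 genes past the threshold with the largest difference, or up to 2 where none passed, by the brightest tested probe. For the KLF gene with the largest difference in each direction it names the 3 nearest probes. Other genes in the text were chosen after their values were seen. The members and lists were chosen with earlier results of these data known. The series text says that RNA was isolated in pairs on different days. That same-numbered arrays form such a pair was assumed here. The correlation between same-numbered arrays, after subtracting group means, was 0.219. The reported comparison has no block. Alternatives were another normalization, no background correction, the deposited log2 table, other detection filters, the replicate block and leaving out each array.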

Additional observations from a re-analysis of the deposited data

How the results depend on the processing

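None of the 10 tested probes of the listed KLF genes changed direction under any of the 12 alternatives. Much of this was fixed in advance. Other detection filters and the replicate block leave the differences themselves unchanged. Leaving out an array could not reverse the 9 probes whose groups did not overlap. Of 115 alternative values of KLF probes, 96 kept their side of the threshold, 17 lost a call and 2, both for KLF7, gained one. The 5 higher KLF probes became 3 under 75th percentile scaling, 1 when undetected probes were included in the test and 3 among probes detected on all 4 arrays, where 1 was lower instead of 2. With each array left out in turn, the higher KLF probes numbered 2 to 5, the lower ones 1 to 2, and all calls 4532 to 6937, against 7322. Including undetected probes raises the number of tests to 47321, and 5546 passed. With the replicate pairs as a block 8471 probes passed, 6 KLF probes were higher and 2 lower, and KLF7 was the KLF call that changed. For 43 other named genes, 474 of 497 alternative values kept side and direction. With each array left out in turn, KLF12 ran from -0.68 to 0.19 (positive without GFP-positive replicate 2) and CD14 from -0.75, which passed, to 0.12 (positive without GFP-negative replicate 1). CD68 passed at -0.63 in the setting where CD14 did. None of the 3 passed in the reported comparison, and the cause was not tested. Restricting the test to probes detected on all 4 arrays drops every gene given as a bound. The KLF5, KLF7, KLF9 and KLF10 signals lie near background in GFP-negative or GFP-positive cells, and their differences were smaller without background correction. Of all calls 46.4% were higher, 52.2% with cyclic loess and 41.6% with 75th percentile scaling.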
